A study of Mus musculus with 3 samples.

Results

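Ltf, Ngp, Camp, Lcn2, Mmp8, Mmp9, Retnlg, Wfdc21, Elane and Mpo encode proteins of neutrophil granules or proteins made alongside them. These 10 genes, of 27998 in the count matrix, were taken by symbol, and their transcripts were followed in neutrophils, in the other cells of the same sort and in each library. Brains were taken without the cerebellum, and cells carrying Cd11b, an integrin chain found on myeloid cells including microglia and neutrophils, were sorted by FACS for single-cell RNA sequencing. All mice were C57BL6J females aged 5 months. The labels describe an untreated group (Ctrl, 1 animal), a group fed PLX5622 at 1200 mg/kg of diet for 14 days (D0, where 2 animals were pooled) and a group given control diet for 2 days after 14 days of PLX5622, with no dose named in its label (D2, 1 animal). PLX5622 inhibits Csf1r, a receptor that microglia need to survive. Each group is 1 library, and the protocol in the labels speaks of 4 samples, of which these 3 are described.

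Neutrophils make their granules one after another as they mature in the bone marrow. Azurophil granules, with elastase and myeloperoxidase, come at the promyelocyte stage, specific granules with lactoferrin and cathelicidin come next, and gelatinase granules come last. Transcription of each set largely stops before the cell leaves the marrow, so mature blood neutrophils carry the proteins long after most of the mRNA is gone. Specific granules arm the cell with antimicrobial proteins, and gelatinase granules hold the proteases a neutrophil uses to cross vessel walls.

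The matrix held 1263, 599 and 287 barcodes whose names end in 1, 2 and 3, here called library 1, library 2 and library 3. No source used here ties these numbers to Ctrl, D0 or D2, so the libraries are set side by side and no group comparison or p-value is given. Libraries 1 to 3 held 6410990, 4022293 and 2831118 UMIs (unique molecular identifiers, 1 per captured transcript), with medians of 3662, 6188 and 8172 per barcode. Levels (CPM) are UMIs of a gene per 1000000 UMIs, both summed over barcodes, with exact Poisson 95% intervals. Shares of cells have exact Clopper-Pearson 95% intervals, and both kinds cover counting error only. Where a count was 0, the level that 3 counts would give is stated as what the depth allows. No barcode sequence was shared between libraries. Each transcript is counted by its 3′ end, so levels of different genes are set side by side without scaling by length.

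One cluster of 125 barcodes was neutrophil-like. It was found with the granule genes left out of the clustering, S100a8 and S100a9 (calprotectin subunits, abundant in neutrophils) had UMIs in 125 of 125 barcodes, and all 12 fixed neutrophil markers were present. It held 13 barcodes of library 1 (1.03%, interval 0.550 to 1.76), 84 of library 2 (14.2%, 11.5 to 17.3) and 28 of library 3 (9.86%, 6.65 to 13.9). Itgam, the gene of Cd11b, stood at 148 CPM in the cluster and at 252 CPM in microglia-like cells.

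The 125 barcodes were not alike. In 65 of them (8, 48 and 9 in libraries 1 to 3) at least 3 fixed markers of 1 of 7 other classes had a UMI (microglia, dendritic cells, nonclassical monocytes, border-associated macrophages, NK, B or T cells), and these are called mixed barcodes. Nr4a1 and Pglyrp1 were left out of the nonclassical monocyte list. The other 60 (5, 36 and 19) are called unmixed, which says nothing of the classes not counted. The monocyte list was one of these: Hp had a UMI in 121 of the 125 barcodes, Plac8 in 64, Ly6c2 in 58, Chil3 in 48, Ccr2 in 30 and Fn1 in 4, while Vcan and F13a1 were at 0. Hp and Chil3 also belong to the other specific granule genes used here. Of the mixed barcodes, 35 carried the microglia list, 35 the dendritic list, 13 the nonclassical monocyte list and 1 the B cell list, and a barcode could carry more than 1. In library 1 all 8 carried the microglia list and none the dendritic list. All 10 microglia markers and all 8 dendritic markers had a UMI in the mixed barcodes, with summed levels of 3663 and 2371 CPM. The same lists stood at 178 and 110 CPM in the unmixed barcodes, with 8 of 10 and 3 of 8 markers present. Cd74, the invariant chain of MHC class II, stood at 24065 CPM in mixed and 1675 CPM in unmixed barcodes, against 39614 CPM in dendritic-like cells. Ly6g, a neutrophil surface marker, stood at 58.6 CPM in mixed and 919 CPM in unmixed barcodes. S100a8 and S100a9 together made up a median of 2.44% of UMIs in mixed and 36.6% in unmixed barcodes. The highest mixed barcode was at 20.6%, and 5 unmixed barcodes, all of library 2, lay under 10%, the lowest at 3.25%. Median depth was 7721 UMIs in mixed and 3380 in unmixed barcodes. The highest doublet score among the mixed barcodes was 0.148, and whether they hold RNA of more than 1 cell was not tested. The rule for mixed barcodes was set after these data had been seen, so levels, detection, co-detection and correlations are given for all 125 barcodes and for the 60. The later groups by Ltf, Ngp and Camp hold unmixed barcodes only. Ratios to calprotectin are given mainly for unmixed barcodes. With finer clustering (resolution 1.0 in place of 0.5) the neutrophil-like cluster held 69 barcodes. Taking library 2 away, without clustering again, left 41 of the 125.

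Among the azurophil genes almost nothing was found in neutrophil-like cells. Elane, which encodes neutrophil elastase, had 1 UMI there, in an unmixed barcode of library 2, and 0 in libraries 1 and 3. Mpo, which encodes myeloperoxidase, had 0 UMIs in the 125 barcodes, where 3 counts would be 3.71 CPM and the Poisson interval ends at 4.56 CPM. The other azurophil genes fixed for comparison were as scarce: Ms4a3, Prss57 and Prtn3, the 3 highest of the 6, stood at 11.1, 7.42 and 3.71 CPM. The whole data set held 24 Elane UMIs in 7 cells and 4 Mpo UMIs in 2 cells. Of the Elane UMIs, 18 lay in 1 cell of library 2, in an unnamed cluster of 82 cells led by the cell cycle genes Birc5, Rrm2 and Top2a. That cell also had 26 UMIs of Prtn3, 10 of Ctsg, 2 of Mpo, 11 of Top2a and 74 of the monocyte gene Ly6c2, with 5 of S100a8 and 0 of Ltf and Ngp. It thus held 4 azurophil protease and peroxidase genes and next to none of the specific granule genes. Of the other 5 Elane cells outside the neutrophil-like cluster, 3 lay in the same unnamed cluster and 2 among monocyte-like cells, each with 1 UMI. Prtn3 was more widely found: 38 of 144 monocyte-like cells had a UMI, at 69.3 CPM, and 33 of these cells were of library 3. Ctsg had a UMI in 8 of the 144. No statement on Elane or Mpo levels by library can rest on counts this low.

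Ngp and Camp, both specific granule genes, were the most abundant members, and their levels depended on the mixed barcodes. Ngp (neutrophilic granule protein, of the cathelicidin-related family) stood at 23729, 10474 and 30363 CPM in libraries 1 to 3 over all 125 barcodes. Over the unmixed barcodes it stood at 57853, 37329 and 49348 CPM. Library 2 was the lowest both ways, and the ratio of the highest to the lowest library was smaller without the mixed barcodes.

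Camp, the gene of the antimicrobial peptide cathelicidin, stood at 46949 CPM (interval 44264 to 49754) in library 1, 29475 (28616 to 30352) in library 2 and 34675 (33453 to 35930) in library 3 over unmixed barcodes. Ltf, which encodes the iron-binding protein lactoferrin, stood at 12426, 6863 and 9082 CPM, and Lcn2, which encodes the siderophore-binding lipocalin 2, at 15060, 10635 and 15563 CPM. Over all 125 barcodes Camp was at 19243, 8199 and 20511 CPM, Ltf at 5093, 1951 and 6081 CPM and Lcn2 at 6560, 3155 and 9056 CPM. The mixed barcodes of library 1 had 0 UMIs of Ltf and Camp and 1 of Ngp, where 0 allows up to 85.7 CPM. In library 3, 1 mixed barcode held all 236 Ltf UMIs, 827 of 828 Ngp UMIs and 439 of 442 Camp UMIs of the mixed barcodes.

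Mmp8, the neutrophil collagenase, stood at 1317 (901 to 1859), 1176 (1009 to 1362) and 1654 (1396 to 1947) CPM in the unmixed barcodes of libraries 1 to 3. Library 3 lay above library 2, and library 1, with 32 UMIs, overlapped both. Mmp9, gelatinase B, stood at 1070 (699 to 1568), 700 (573 to 847) and 810 (633 to 1022) CPM, which counting error does not separate. Retnlg, a resistin-like protein of neutrophils, stood at 17776, 17439 and 25262 CPM, highest in library 3. Wfdc21, a small protein with a whey acidic protein domain, stood at 6542, 5985 and 6333 CPM, again within counting error. Over all 125 barcodes Mmp8 was at 658, 429 and 919 CPM, Mmp9 at 607, 281 and 501 CPM, Retnlg at 9411, 7363 and 13965 CPM and Wfdc21 at 2833, 1958 and 3571 CPM.

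The order of the members in unmixed barcodes was the same in each of the 3 libraries: Ngp, Camp, Retnlg, Lcn2, Ltf, Wfdc21, Mmp8, Mmp9. Along this order the ranges over libraries of Ngp and Camp overlapped, and so did those of Lcn2 and Ltf, while the other neighbours did not overlap. Within library 1 alone the intervals of Mmp8 and Mmp9 overlapped. Summed over the 10 genes, the members took 47057 CPM over all 125 barcodes, 80609 CPM without library 2 and 125188 CPM over the 60 unmixed barcodes.

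**Figure D1:**
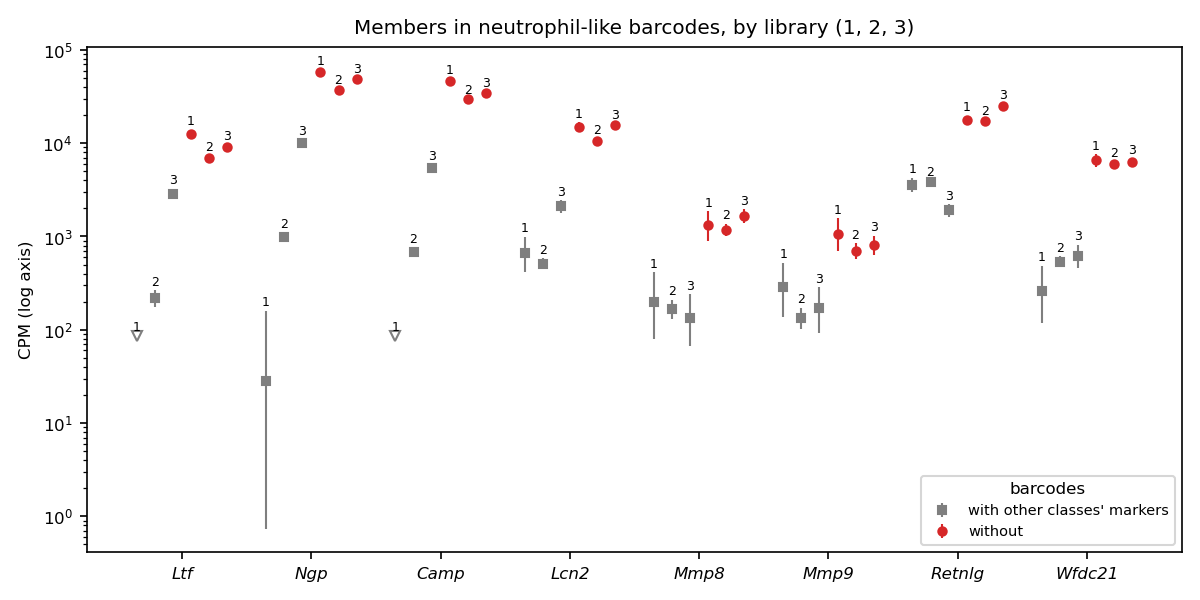
Level of each of 8 members in CPM (log axis) in the neutrophil-like barcodes of libraries 1, 2 and 3, as grey squares for barcodes with other classes' markers and red circles for those without; bars are Poisson 95% intervals and open triangles mark the level that 3 counts would give where the count was 0. Ngp without other classes' markers lies between 37329 and 57853 CPM and with them between 28.6 and 10089 CPM.

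Detection was compared after thinning every barcode to 2000 UMIs, which left out 8 barcodes, all of library 2 and all unmixed. Most of these 8 had at most 1 UMI of Ltf, Ngp and Camp together. The thinned unmixed shares therefore lean towards barcodes that hold these genes. Among the remaining 52 unmixed barcodes Retnlg was detected in 96.2%, Lcn2 and Wfdc21 in 94.2%, Ngp in 84.6%, Camp in 78.8%, Mmp9 in 75.0%, Mmp8 in 71.2% and Ltf in 69.2%. Among all 117 thinned neutrophil-like barcodes the shares were 87.2% for Retnlg, 60.7% for Lcn2, 64.1% for Wfdc21, 44.4% for Ngp, 40.2% for Camp, 49.6% for Mmp9, 45.3% for Mmp8 and 33.3% for Ltf. Without thinning, Ngp had a UMI in 52.8% and Ltf in 33.6% of the 125. Outside the cluster the thinned share of Ngp was 2.56% and that of Ltf 0.313%, at a median depth of 4582 UMIs against 5557 in the cluster. In the microglia-like cells of library 2, which should lack Ngp, the thinned share was 12.1%.

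At 2000 UMIs, Ltf was found where 4 other members were found too: all 36 unmixed barcodes with Ltf also had Ngp, Camp, Lcn2 and Wfdc21. All 41 with Camp had Ngp, and all 44 with Ngp had Lcn2 and Wfdc21. In this thinned draw the genes were thus nested: Ltf within Camp, Camp within Ngp, Ngp within Lcn2. Without thinning, an unmixed barcode of library 2 had 2 Camp UMIs and 0 of Ngp and Lcn2. Ltf was also lower in CPM than Ngp, Camp and Lcn2, which bears on its detection at a fixed depth. The protease genes did not follow this nesting. Of the 36 barcodes with Ltf, 24 had Mmp8 and 27 had Mmp9, and of the 37 with Mmp8, 32 had Mmp9. Counting Ltf, Ngp and Camp, 36 of the 52 barcodes had all 3, 5 had 2, 3 had 1 and 8 had none. All 8 members other than Elane and Mpo were found together in 20 barcodes, and the median barcode had 7. Over all 117 barcodes, 39 had the 3 genes and 64 had none, all 39 with Ltf had Ngp, Camp, Lcn2 and Wfdc21, and 46 of the 47 with Camp had Ngp.

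**Figure D2:**
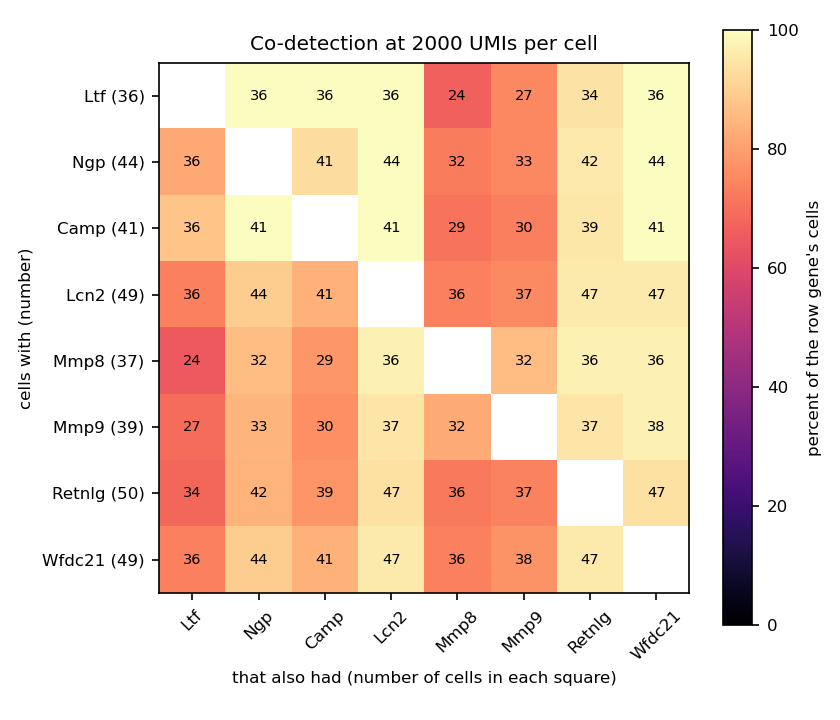
Number of unmixed neutrophil-like cells, thinned to 2000 UMIs, that had the row gene and also the column gene, coloured by the percent of the row gene's cells. The row of Ltf holds 36 cells, all with Ngp, Camp, Lcn2 and Wfdc21, and 24 with Mmp8.

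Across the 60 unmixed barcodes, Pearson correlations of log-scaled levels were 0.95 for Ltf and Camp, 0.89 for Ngp and Camp, 0.87 for Ltf and Ngp and 0.88 for Lcn2 and Ngp. Retnlg stood at -0.37 with Ltf, -0.36 with Camp and -0.16 with Ngp, and at 0.71 with Mmp8 and 0.51 with Mmp9. The same signs were found within library 2 (-0.44 for Ltf and Retnlg, -0.20 for Ngp and Retnlg, 0.64 for Mmp8 and Retnlg, 36 barcodes) and within library 3 (-0.43, -0.27 and 0.87, 19 barcodes). Over all 125 barcodes Retnlg stood at 0.12 with Ltf, 0.18 with Camp and 0.32 with Ngp, so the negative sign was found in the unmixed barcodes and not in the whole cluster. The barcodes share 3 libraries, each barcode's depth and one total per barcode, so these values are descriptive.

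The promoters of Ltf, Ngp, Camp and Retnlg are shown because the first 3 were closely correlated from cell to cell, while Retnlg, also abundant, was highest in other barcodes. The 250 bases before each annotated start were read from the RefSeq table of promoters on GRCm38.p6, which held 8 of the 10 genes and not Mmp9 or Wfdc21. They are given 5′ to 3′ on the strand of the gene, with matches to TTNNGNAA, a core of sites of the C/EBP factors that drive granule genes, in capitals (both strands searched). Ltf lies on the plus strand (chr9:111019042-111019291), Ngp on the plus strand (chr9:110419558-110419807), Camp on the minus strand (chr9:109849457-109849706) and Retnlg on the plus strand (chr16:48872358-48872607).
Ltf: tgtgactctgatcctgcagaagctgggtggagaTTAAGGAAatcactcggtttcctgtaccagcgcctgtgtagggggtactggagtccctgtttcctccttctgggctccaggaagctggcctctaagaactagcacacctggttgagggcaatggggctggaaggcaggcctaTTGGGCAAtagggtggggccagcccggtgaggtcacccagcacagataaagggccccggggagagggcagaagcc
Ngp: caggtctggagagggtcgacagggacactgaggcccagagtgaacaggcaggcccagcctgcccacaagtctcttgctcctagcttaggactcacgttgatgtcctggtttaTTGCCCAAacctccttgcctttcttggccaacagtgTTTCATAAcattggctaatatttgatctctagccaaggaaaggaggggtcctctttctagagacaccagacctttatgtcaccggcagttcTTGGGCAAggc
Camp: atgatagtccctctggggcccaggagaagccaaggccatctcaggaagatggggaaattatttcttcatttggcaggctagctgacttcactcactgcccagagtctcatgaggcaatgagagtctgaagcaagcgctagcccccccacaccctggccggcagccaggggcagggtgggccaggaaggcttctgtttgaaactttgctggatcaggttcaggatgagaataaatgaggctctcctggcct
Retnlg: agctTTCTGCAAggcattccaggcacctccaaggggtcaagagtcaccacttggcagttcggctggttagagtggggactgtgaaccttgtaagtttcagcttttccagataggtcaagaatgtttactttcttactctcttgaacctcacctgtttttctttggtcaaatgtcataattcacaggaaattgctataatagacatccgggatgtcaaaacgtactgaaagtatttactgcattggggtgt

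In these windows the C/EBP core matched at -217 and -75 from the start of Ltf, at -138, -102 and -11 of Ngp, at -246 of Retnlg and nowhere in Camp. It also matched at -216 of Lcn2 and at -151 and -19 of Mmp8, and nowhere in the windows of Elane and Mpo. Of all 32851 promoters in the table, 36.8% held a match in a window of the same length. GAGGAAG, a core bound by PU.1, was absent from these 4 windows and matched in the window of Elane, at -85, at -247 and -224 in that of Mpo, at -21 in that of Lcn2 and at -220 in that of Mmp8, so in 4 of the 8 windows, against 10.6% of all promoters. The TATA box letters TATAAA matched in none of the 8 member windows and in 12.4% of all promoters. A match of letters is a description of the window and not a bound site. Camp, Ngp and Ltf lie in this order on chromosome 9, with 570 kb and 8 protein-coding genes between Camp and Ngp, and 596 kb and 20 protein-coding genes between Ngp and Ltf.

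To place the other members along the specific granule program, the 60 unmixed barcodes were put in 3 groups by the percent of their UMIs from Ltf, Ngp and Camp. Under 0.1% were 14 barcodes (0, 12 and 2 in libraries 1 to 3), here granule-poor. Between 0.1% and 5% were 18 (1, 11 and 6), here the middle group, and at 5% or more were 28 (4, 13 and 11), here granule-rich. These are ranges of one measure and not cell types. The limits were set after the data had been seen, and 2 barcodes lay between 0.05% and 0.2% and 1 between 4% and 6%. Median depths were 2038, 3168 and 5775 UMIs from granule-poor to granule-rich. The granule-poor group held all 5 unmixed barcodes under 10% calprotectin. Its 2 deepest barcodes, both of library 2, had 7107 and 8881 UMIs, with 148 and 146 of S100a8. They held 25 and 8 UMIs of Retnlg and 0 and 2 of Mmp9, which lowered the pooled granule-poor levels of these genes. Of the mixed barcodes, 59 of 65 lay under 0.1% and 40 had no UMI of the 3 genes. By the grouping itself, Ltf stood at 0, 1473 and 12344 CPM, Ngp at 49.3, 12459 and 64171 CPM and Camp at 49.3, 3727 and 50661 CPM in the granule-poor, middle and granule-rich groups. The 0 of Ltf allows up to 73.9 CPM.

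**Figure D3:**
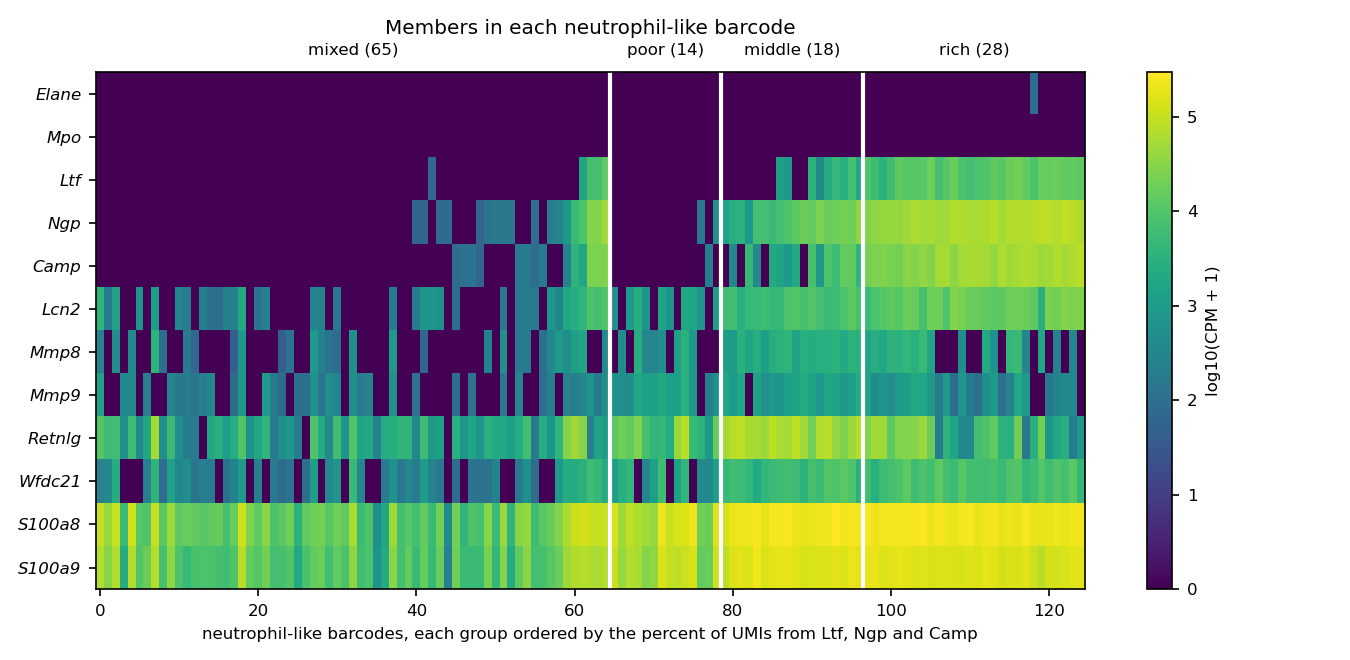
Level of each member, and of S100a8 and S100a9, in every neutrophil-like barcode as log10(CPM + 1), with the 65 mixed barcodes at the left and the 14 granule-poor, 18 middle and 28 granule-rich barcodes after them, each group ordered by its percent of UMIs from Ltf, Ngp and Camp. Retnlg is brightest in the middle group, and Ltf is dark in all 14 granule-poor barcodes.

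Lcn2 and Wfdc21 followed Ltf, Ngp and Camp, with Lcn2 at 690, 6922 and 17560 CPM and Wfdc21 at 1281, 6105 and 7356 CPM from granule-poor to granule-rich. Lcn2 was found in 10 of 14, 18 of 18 and 28 of 28 barcodes. Its libraries stayed close within the granule-rich group, at 15934, 16696 and 19237 CPM.

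Retnlg was highest in the middle group, where its 18 barcodes ran from 20581 to 90300 CPM with a median of 55656. In the granule-rich group they ran from 152 to 52129 CPM with a median of 5449, and in the granule-poor group from 901 to 79694 CPM with a median of 9898. The groups overlapped in their extremes. By library, Retnlg in the middle group stood at 70646, 56582 and 59547 CPM in libraries 1 to 3, where library 1 had a single barcode. In the granule-rich group it stood at 11813, 5283 and 13220 CPM, so all 3 libraries were higher in the middle group. Pooled, Retnlg was 58249 CPM in the middle group and 9153 CPM in the granule-rich group, a log2 difference of 2.67. Within the granule-rich group it was 30576 CPM in the 6 barcodes under 10% and 6196 CPM in the 22 at 10% or more. Counted as UMIs per barcode, which takes no share of a total, the log2 difference between the middle and granule-rich groups was 1.75. Leaving members, S100a8 and S100a9 out of the totals gave 2.53.

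Against the granule-poor group the difference of Retnlg rested on library 2. The granule-poor level was 11851 CPM pooled, a log2 difference of 2.30 from the middle group. The 2 deepest granule-poor barcodes, with 25 and 8 Retnlg UMIs, lowered that level. Library 2 stood at 8115 CPM over 12 barcodes and library 3 at 41955 CPM over 2 barcodes, with 11 and 177 UMIs. Without library 2 the log2 difference was 0.53.

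The protease genes Mmp8 and Mmp9 had their own order. Mmp8 stood at 468, 2573 and 1148 CPM in the granule-poor, middle and granule-rich groups, and had a UMI in 8 of 14, 18 of 18 and 18 of 28 barcodes. Mmp9 stood at 838, 1384 and 547 CPM, with a UMI in 13 of 14, 17 of 18 and 25 of 28. The 2 deepest granule-poor barcodes, with 0 and 2 Mmp9 UMIs, lowered its pooled level in that group. For Mmp9 the granule-poor level lay above the granule-rich level, where for Lcn2 and Wfdc21 it lay far below. Per library, Mmp8 in the middle group stood at 2842, 2155 and 3250 CPM against 1145, 1167 and 1124 CPM in the granule-rich group. Mmp9 stood at 812, 1269 and 1650 CPM against 1099, 467 and 459 CPM, so library 1, with 2 UMIs in its single middle barcode, went the other way. The granule-poor levels came mostly from library 2, at 277 CPM for Mmp8 and 692 CPM for Mmp9. In library 3, with 9 UMIs of each gene in 2 barcodes, both stood at 2008 CPM, which is above the granule-rich level of Mmp8 and above the middle level of Mmp9 in that library, so the place of the granule-poor group in both orders rested on library 2.

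**Figure D4:**
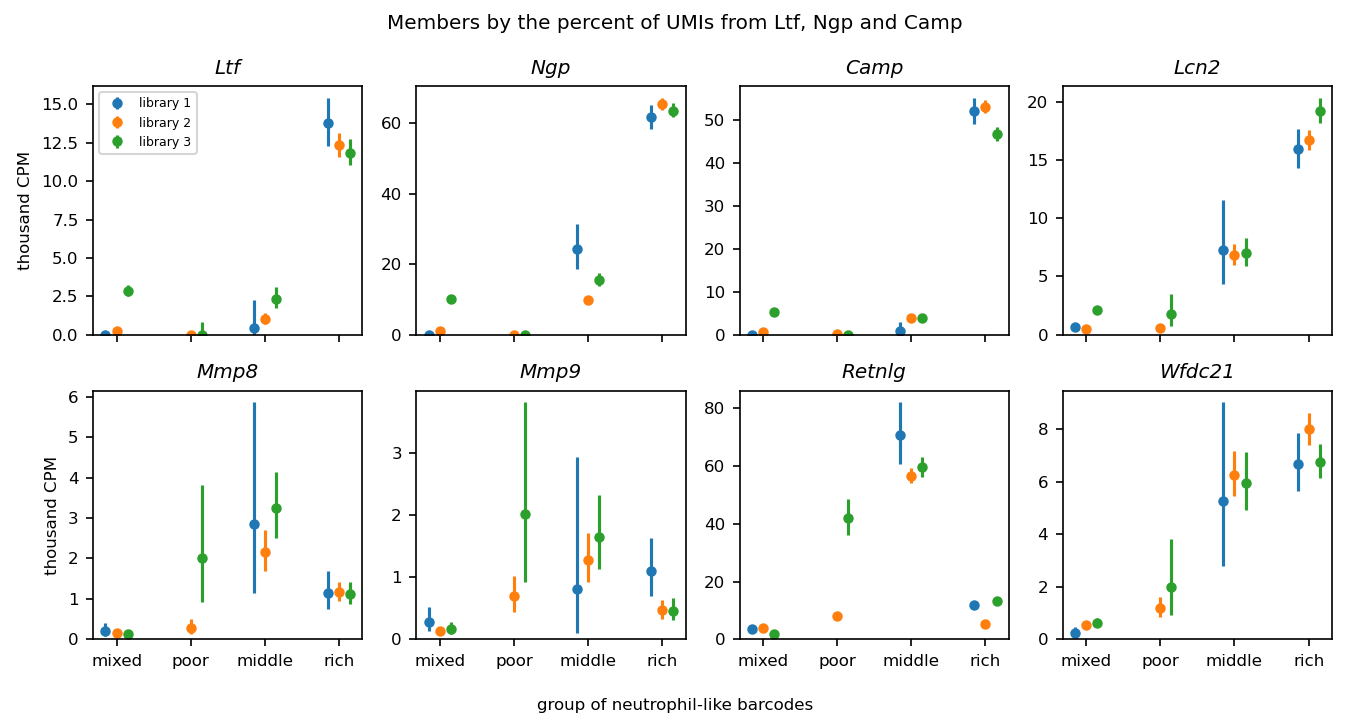
Level of 8 members in CPM divided by 1000 in mixed, granule-poor, middle and granule-rich barcodes, one colour for each library, with Poisson 95% intervals. Retnlg and Mmp8 are highest in the middle group in all 3 libraries, and Ltf, Ngp, Camp and Lcn2 in the granule-rich group; library 1 has 1 middle barcode and library 3 has 2 granule-poor barcodes.

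Set against S100a8 and S100a9, Ngp had 0.371, 32.1 and 174 UMIs per 1000 calprotectin UMIs in the granule-poor, middle and granule-rich groups, and Retnlg had 89.2, 150 and 24.9. Mmp9 had 6.30, 3.56 and 1.49, which is a decreasing order. On this scale the granule-poor barcodes held more Mmp9 than the granule-rich ones and more Retnlg too. The rise of Retnlg from the granule-poor to the middle group was found in library 2 (73.0 to 158) and not in library 3 (136 to 135). The members with S100a8 and S100a9 made up 14.8%, 48.1% and 53.1% of all UMIs in the 3 groups and 5.13% in the mixed barcodes.

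Genes outside the 10 also differed between these groups. Chil3, a chitinase-like protein of specific granules, stood at 24.6, 408 and 6827 CPM from granule-poor to granule-rich, and Ifitm6, an interferon-induced membrane protein, at 24.6, 2219 and 4958 CPM. Cebpe, the transcription factor of specific granule genes, stood at 0, 53.2 and 397 CPM, and Fcnb, a ficolin of immature neutrophils, at 0, 0 and 282 CPM. The reverse order was found for Il1b, the cytokine interleukin 1 beta, at 12910, 3851 and 403 CPM, and for Csf3r, the receptor for G-CSF, at 813, 284 and 72.1 CPM. Cxcr2, the chemokine receptor of mature neutrophils, stood at 394, 550 and 60.1 CPM, with its lowest level in the granule-rich group. Of the same list of mature genes, Ptgs2, the inducible cyclooxygenase, stood at 172, 71.0 and 6.01 CPM. Others had their lowest level in the granule-poor group: Itgam stood at 73.9, 177 and 198 CPM and Fpr1, a formyl peptide receptor, at 49.3, 213 and 144 CPM, with 3 and 2 UMIs in the granule-poor barcodes. Il1r2, at 443, 586 and 282 CPM, was highest in the middle group, so the list did not share 1 order. Proliferation genes were scarce: Mki67 had 6 UMIs and Top2a 8 UMIs in the 28 granule-rich barcodes.

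The fixed lists were read between thinned barcodes with at least 2 of Ltf, Ngp and Camp and those with 0 or 1. A gene was tested with 50 UMIs or more, and called when it passed 2-fold in the same direction in each library after 10 CPM were added. Over the whole cluster (46 against 71 barcodes) 518 genes were tested, with a median log2 difference of -0.87, and 6.18% were called higher and 30.5% lower. Of the other specific granule list, 5 of 7 tested genes were called higher and 0 lower, with a median of 1.99. Over the unmixed barcodes (41 against 11) 198 genes were tested, with a median of -0.68, and 8.59% were called higher and 9.09% lower. Library 1 had 5 against 0 unmixed barcodes, so these calls came from libraries 2 and 3 alone. They held 20 against 8 and 16 against 3 barcodes. In the unmixed barcodes 2 of 6 tested genes of the other specific granule list were called higher, with a median of 1.10. The barcodes that thinning left out of this comparison were mostly granule-poor.

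Of that list, Lyz2, the lysozyme of myeloid cells, stood at 16683 against 8682 CPM in the unmixed barcodes and was not called. Chil3 stood at 3573 against 90.9 CPM, a log2 difference of 5.15, and was called. Anxa1, annexin A1, stood at 3622 against 1500 CPM and was not called. Of the other late granule genes, 1 of 4 was called higher in the unmixed barcodes: Ifitm6, at 3963 against 455 CPM. Slpi, a secreted protease inhibitor, stood at 2378 against 3955 CPM and Pglyrp1, a peptidoglycan recognition protein, at 3488 against 1636 CPM, neither called.

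Of the genes of early neutrophil precursors, 1 of 2 was called higher in the unmixed barcodes, Cd24a at 720 against 227 CPM, while Hmgn2, a nucleosome-binding protein, stood at 1085 against 545 CPM. The log2 difference of Cd24a was 1.14 in library 2. In library 3 Cd24a was at 0 CPM in the 3 barcodes set against the other 16. Tuba1b, an alpha tubulin and the next of that list, had 5 UMIs and was not tested. Of the mature neutrophil list, 1 of 1 was called lower, Il1b at 1439 against 7182 CPM. Ccl3, a chemokine, and Il1r2, a decoy receptor for interleukin 1, had 8 and 43 UMIs there and were not tested. Over the whole cluster Ccl3 stood at 141 against 1472 CPM and Il1r2 at 424 against 254 CPM, neither called. None of the azurophil or proliferation genes had the UMIs to be tested, and the highest of the proliferation list, Stmn1, Ccnb2 and Birc5, stood at 29.7, 14.8 and 13.6 CPM in the neutrophil-like cluster. Summed, the proliferation list stood at 195 against 45.5 CPM in the unmixed barcodes, the latter from 1 UMI of Tk1. Over the whole cluster the counts were 2 of 4 higher for other late genes, 1 of 2 higher for precursor genes and 1 of 4 lower for mature genes.

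By correlation across the 125 neutrophil-like barcodes, the non-member gene most like Ltf was Chil3 (r = 0.86, and 0.82 over the 60 unmixed), and the one most like Ngp was Ifitm6 (0.90 and 0.91). Ifitm6 was also the closest to Camp (0.86 and 0.83). Lcn2 was closest to S100a9 (0.84, and 0.72 over the unmixed, where Ifitm6 stood at 0.86). Wfdc21 was closest to S100a9 too (0.82, and 0.57 over the unmixed, where Anxa1 stood at 0.69). Mmp8 was closest to S100a8 at 0.65, a value that was 0.36 over the unmixed barcodes. Mmp9 and Retnlg were both closest to S100a11, a calcium-binding protein (0.64 and 0.67 over all, 0.55 and 0.60 unmixed). Across the 14 clusters, Ly6g was closest to Ltf (0.96) and S100a8 to Retnlg (0.97).

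Outside the neutrophil-like cluster the members were rare. The cluster, with 5.85% of the cells, held 98.9% of Ltf UMIs, 98.6% of Ngp, 98.7% of Camp, 97.0% of Lcn2 and 94.9% of Wfdc21. It held 88.3% of Retnlg UMIs, 85.3% of Mmp9 and 85.1% of Mmp8. By library the share of Retnlg was 96.9%, 91.5% and 81.4% in libraries 1 to 3, and that of Mmp8 90.7%, 90.2% and 76.8%. All members together stood at 134 CPM in the other 2012 cells, at 264 CPM without library 1 and at 84.6 CPM without library 3.

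Each member was also set against 1000 UMIs of S100a8 and S100a9 in every class. Ngp had 147, 126 and 127 in the unmixed barcodes of libraries 1 to 3. In microglia-like cells it had 61.0 (interval 32.5 to 104) in library 1 and 75.6 (40.2 to 129) in library 2, and in NK-like cells of library 2 it had 89.1 (40.7 to 169). The library 2 intervals include the unmixed value of that library, and the library 1 interval lies below its own. Dendritic-like cells of library 2 had 33.8 (23.9 to 46.4) and migratory dendritic-like cells 21.8 (12.2 to 35.9), both below the unmixed value. Mixed neutrophil-like barcodes of library 2 had 26.5 (24.1 to 29.2), which lies within both of these intervals. Monocyte-like cells had 22.8 (13.3 to 36.4) in library 2 and 15.4 (9.51 to 23.5) in library 3, below the unmixed neutrophil-like barcodes of the same library.

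Mmp8 stood higher against calprotectin in monocyte-like cells than in neutrophil-like cells. It had 25.4 (15.3 to 39.7) UMIs per 1000 in monocyte-like cells of library 2 and 24.9 (17.2 to 34.8) in library 3, against 3.96 and 4.27 in unmixed neutrophil-like barcodes, whose intervals ended at 4.58 and 5.03. Microglia-like cells had 0 Mmp8 UMIs in 1154 cells. In CPM, Mmp8 in monocyte-like cells stood at 77.3, 35.8 and 51.7 in libraries 1 to 3, from 4, 19 and 34 UMIs. Of 144 monocyte-like cells, 32 had a UMI of Mmp8 and 15 had 2 or more, and 5 of those 15 had no UMI of S100a8 or S100a9. Camp had a UMI in 13 of the same cells, and Ngp in 37.

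Summed over cells, Retnlg was also higher against calprotectin in several other classes than in unmixed neutrophil-like barcodes, though single cells weighed heavily. It had 174 (145 to 207) UMIs per 1000 of calprotectin in monocyte-like cells of library 2 and 132 (114 to 153) in library 3, against 58.7 and 65.2 in unmixed neutrophil-like barcodes. The unnamed cell cycle cluster had 92.9 (71.7 to 118) and 128 (115 to 142). In library 2, 1 cell held 58 of this cluster's 65 Retnlg UMIs and 168 of its 700 calprotectin UMIs. The library 2 value thus rested on 1 cell. Among monocyte-like cells, 1 cell held 55 of 130 Retnlg UMIs in library 2 and 1 held 114 of 181 in library 3. In library 2, dendritic-like cells had 88.0 (71.5 to 107), migratory dendritic-like cells 88.5 (67.7 to 114) and mixed neutrophil-like barcodes 102 (96.9 to 107). Few cells held much of this: 5 cells held 37.9% of the 953 Retnlg UMIs outside the cluster. The highest was a monocyte-like cell of library 3 with 114 Retnlg UMIs, 270 of S100a8 and S100a9 and 0 of Ngp and Camp. The next was a cell of the unnamed cluster of library 3 with 100, 384, 0 and 0. The middle group of neutrophil-like barcodes stood at 150 Retnlg UMIs per 1000 of calprotectin. Whether free RNA or RNA of another cell in the same droplet set these counts was not tested.

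**Figure D5:**
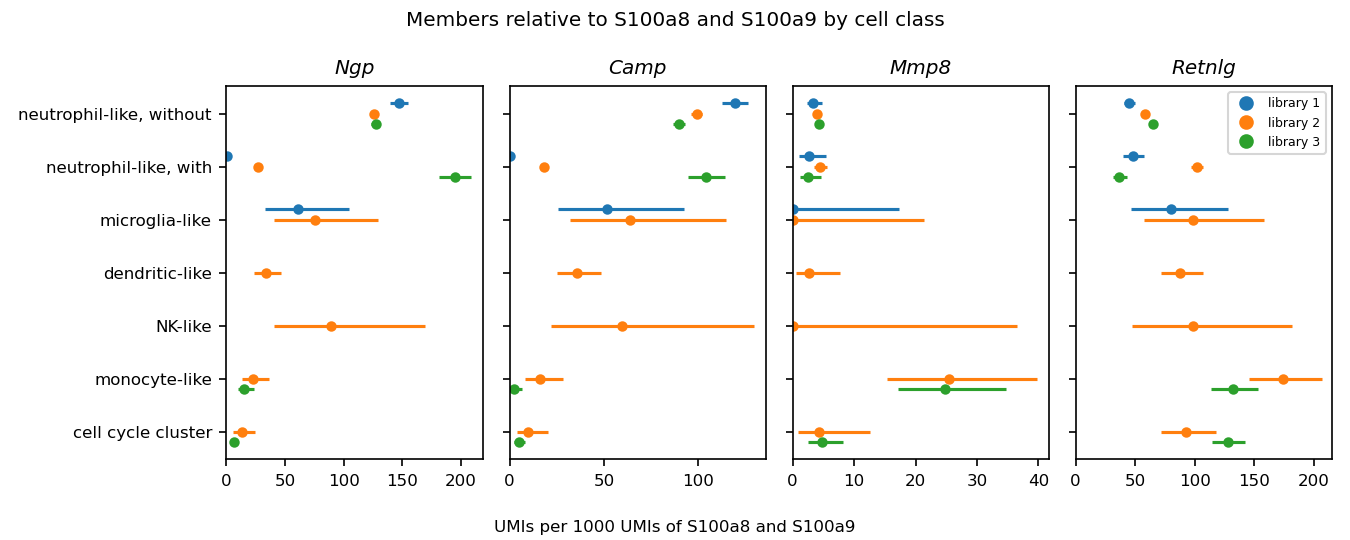
UMIs of Ngp, Camp, Mmp8 and Retnlg per 1000 UMIs of S100a8 and S100a9 by cell class and library, with exact 95% intervals, where "with" and "without" mean barcodes with and without other classes' markers. Mmp8 in monocyte-like cells lies at 25.4 and 24.9, above the 3.96 and 4.27 of neutrophil-like cells without other classes' markers in libraries 2 and 3.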

How the data were processed

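UMI counts per gene and barcode were deposited by the authors as 1 matrix; the submitters' processing notes name Cell Ranger 2.0.1 and mm10, and the annotation is not given in the sources used here. Barcodes with at least 500 genes and at most 10% mitochondrial counts were kept, which removed 5 of 2149. Scrublet, run per library at an expected rate of 5%, called 7 doublets (0.326%, a low yield), leaving 2137. Whether the authors removed doublets is not stated. With scanpy 1.11.5 and igraph 0.11.9, the 2000 most variable genes without 36 granule genes, 30 principal components and 15 neighbours gave 14 Leiden clusters at resolution 0.5. A list could name a cluster "-like" when 3 of its markers passed. A marker passed with a UMI in a share of at least 0.3 of the cells and 2 times the median level over clusters. Lists were ranked by how many of their markers were within the 10 genes that led the cluster. A list with none there was used only where a share of at least 0.8 of its markers passed. The unnamed cell cycle cluster had 4 dendritic, 4 microglia and 3 monocyte markers that passed, none of them within its 10. Names are rebuilt and may differ from the study's. Correlations used the natural log of 1 plus counts per 10000.

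The 10 members, the marker lists and the gene lists were chosen with earlier results of these data known, and the naming rule, the rule for mixed barcodes and the granule groups were set after the data had been seen. All members were named; of each list, the 3 genes highest in neutrophil-like cells; and the 3 genes most correlated with a member, of which the first is given. Genes of the granule groups outside this rule (Cebpe, Fcnb, Csf3r, Cxcr2, Ptgs2, Itgam, Fpr1, Mki67, Top2a) were chosen after their values were seen. The proliferation list held 9 measured genes. The fold calls and the Poisson intervals were tested on simulated counts, drawn around a single mean profile. There the calls were scaled to genes known to be unchanged, which is not possible in these data, so the calls as made here were not tested. Numpy 2.4.6, scipy 1.17.1 and pandas 2.3.3 were used. Alternatives covered filters, doublets, resolution, thinning, scaling and leaving out libraries.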

Additional observations from a re-analysis of the deposited data

Results flagged for a closer look

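The 12 barcodes removed before clustering, by the filters or as doublets, held 1023 UMIs of the members, and are outside every comparison above. The UMIs lay in 7 of the barcodes, 565 of them in 1. Retnlg had 398 of them, Ngp 222, Camp 182 and Ltf 41, and the Ltf UMIs all lay in 1 barcode. With the doublets kept, the members stood at 48248 CPM in neutrophil-like cells.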

How the results depend on the processing

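The log2 ratios given below kept their sign under the settings run, and the other values were not read for direction. Without mixed barcodes the correlation of Retnlg and Ltf changed sign, from 0.12 to -0.37. The neutrophil-like cluster held 125 barcodes, and 69 at Leiden resolution 1.0. Of the 125, 60 remained without mixed barcodes and 41 to 112 when 1 library was left out. In these last settings barcodes were taken away without clustering again. Summed member level there was 47057 CPM; it was 35389 with at least 1000 genes per cell, 89812 with at most 5% mitochondrial counts, 48248 with doublets kept, 116815 at resolution 1.0, 45769 with granule genes used for clustering, 56866 as a mean of per-cell CPM, 125188 without mixed barcodes and 36995 to 80609 without 1 library. Outside the cluster the sum of 134 CPM became, in the order of those first 6 settings, 124, 194, 141, 246, 127 and 87.7, and 84.6 to 264 without 1 library. Camp detection of 40.2% became 29.0% with at least 1000 genes, 58.8% with at most 5% mitochondrial counts, 75.4% at resolution 1.0, 78.8% without mixed barcodes and 33.7% to 53.7% without 1 library. The share of Camp cells with Ngp, 97.9%, was 100% with doublets kept, at resolution 1.0 and without mixed barcodes, 87.7% with no thinning, and 96.7% to 100% without 1 library.

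The log2 ratio of the summed mature list, -1.39, was -1.78 with at least 1000 genes and at resolution 1.0, -1.59 with at most 5% mitochondrial counts, -1.74 with the split at 3 genes, -0.51 with totals that leave out members, S100a8 and S100a9, and -2.18 to -1.18 without 1 library. That of the other specific granule list, 2.17, was 2.70, 0.99, 1.70, 2.06 and 3.05 in the same order, and 2.61 with no thinning, 2.29 with the split at 1 gene, 1.09 without mixed barcodes and 1.91 to 2.26 without 1 library. Retnlg in the middle against the granule-rich group, 2.67, was 3.10 with at least 1000 genes, 2.83 with limits at 0.5% and 8%, 2.53 with the reduced totals, 1.75 per barcode, 2.56 with mixed barcodes counted from 2 markers and 2.24 to 3.11 without 1 library. Against the granule-poor group, 2.30, it was 4.67 with at least 1000 genes, 1.56 with at most 5% mitochondrial counts and at resolution 1.0, 1.03 with the other limits, 3.01 with the reduced totals, 1.52 and 3.29 with mixed barcodes counted from 2 and 4 markers, and 0.53 to 2.83 without 1 library. Of 230 single-gene values, 119 kept within their counting interval and 111 moved out of it. The cause was not tested.

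No paired analysis was possible because each group is 1 library and no library is tied to a group. With 125 barcodes in 3 libraries, 13 of them in library 1, the intervals say nothing of how much animals differ. Mmp8 and Mmp9, with 444 and 284 UMIs, and Elane and Mpo, with 1 and 0, are limited by depth.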
